A study of Mus musculus with 4 samples.

Results

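Receptor tyrosine kinases are cell-surface receptors for growth factors, and 45 genes for such receptors and their ligands were followed here in L929 and NIH3T3 cells. They were chosen by name as 24 receptors and 21 ligands of 12 families, leaving out the PDGF and IGF families, and each was read from the probe sets that the platform annotation assigns to its symbol. Of the 18193 genes named on the array, 44 of the 45 members had a probe set of their own, and Areg had none. L929 is a fibroblast line from connective tissue of an adult mouse and NIH3T3 is a fibroblast line from mouse embryos. The study describes L929 as prone to necrosis and NIH3T3 as prone to apoptosis, and total RNA of unstimulated cells was hybridised to Affymetrix Mouse Genome 430 2.0 arrays, with 2 arrays per line and 4 in all. Each way of dying is represented by 1 line, so a difference between the lines cannot be told apart from a difference between the ways of dying. The labels do not say whether the 2 samples of a line were separate cultures, and the p-values therefore reflect only sample-to-sample spread, possibly of technical origin.

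A ligand of these families binds the outer part of its receptor, brings receptor chains together and so switches on the tyrosine kinase inside the cell, from which RAS-MAPK, PI3K and PLC-gamma signals start. Fibroblasts are known as sources of HGF and of the FGFs that act on epithelia, and a cell that makes a ligand together with its receptor can stimulate itself, which is called an autocrine loop. Receptors such as FGFR and ERBB members also need helpers, among them heparan sulphate, neuropilins and the proteases that release ligands from the membrane.

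All values are MAS5 signals in arbitrary units, scaled so that the 4 arrays share a trimmed mean. The trimmed mean as deposited was 135 to 142 on 3 arrays and 210.3 on NIH3T3 replicate 2, and over the tested probe sets Pearson's r was 0.982 within L929 and 0.981 within NIH3T3, against 0.835 to 0.843 between lines, probe sets being no independent replicates. A probe set was tested when both arrays of at least 1 line exceeded 17.3, the 40th percentile of all scaled signals, which is called the filter level here and is no measured detection limit. A gene was called at an adjusted p under 0.05 (limma, Benjamini-Hochberg over 12676 genes) with a fold above 1.5. Of 13 fibroblast markers 9 exceeded the filter level on both L929 arrays and 12 on both NIH3T3 arrays, with summed signals of 37446 to 38909 and 35377 to 46005. Thy1, Dcn, Lum, Pdgfra and Fn1 were called lower in L929 and Pdgfrb higher. Of the markers of other cell types, endothelial Pecam1 and Cdh5, haematopoietic Ptprc and Itgam and epithelial Cdh1 and Krt18 did not exceed the level on both arrays of either line. Of these lists 1 of 9 endothelial, 4 of 9 epithelial, 6 of 10 haematopoietic and 3 of 7 neural markers did so in L929, and 0, 4, 4 and 3 in NIH3T3. Their summed signals in L929 were 108 to 117, 216 to 222, 431 to 446 and 333 to 339. The NIH3T3 sums were 101 to 129.6, 196 to 229.9, 275 to 316 and 173 to 179, in the same order. Of the haematopoietic markers Coro1a was called higher in L929, at 196 and 191 against 19.4 and 6.89, and Cd68 lower. Of the neural and glial markers S100b, at 234 and 215 against 15.2 and 14.2, and Gfap were called higher, and Tubb3 and Snap25 lower. Coro1a and S100b each differed by more than the sums of their lists did, and the part of these markers in the results was not tested.

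Receptor and ligand transcripts differed between the lines mainly through genes that were lower in L929. Of 36 tested members 15 were lower and 3 higher in L929, where 17.7% and 17.4% of all tested genes were lower and higher, and the other 18 were not called. The members were chosen with earlier results of these data known, so this comparison is a description and no test. The ligands held 9 lower and 0 higher calls among 16 tested (limma; 10 lower and 0 higher at an unadjusted p under 0.05), and the receptors 6 lower and 3 higher among 20. The median log2 difference was -0.51 over the tested members and 0.01 over all tested genes. Ptn, Hgf, Gdnf, Met, Axl, Ror2, Nrg1, Fgfr2 and Ror1 differed by more than 4-fold, all towards lower signal in L929, and 0 members were more than 4-fold higher. With an offset of 32, Ror2, Nrg1 and Ror1 were among those under 4-fold, at log2 differences of -1.93, -1.62 and -1.36. With the mean of its probe sets Ror1 stood at -1.22. A gene that is bright in a lone line passes the filter through that line, which was so for 12 of the 36. Among the 24 members above the filter level on all 4 arrays 8 were lower and 2 higher, beside 15.6% and 16% of all such genes. In bulk RNA, fewer cells with a transcript and less transcript per cell cannot be told apart. Without scaling of the arrays 1 member was higher and 31.4% of all calls lay on the higher side, in place of 49.5%. Without NIH3T3 replicate 1 the fit also called 1 member higher.

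**Figure D1:**
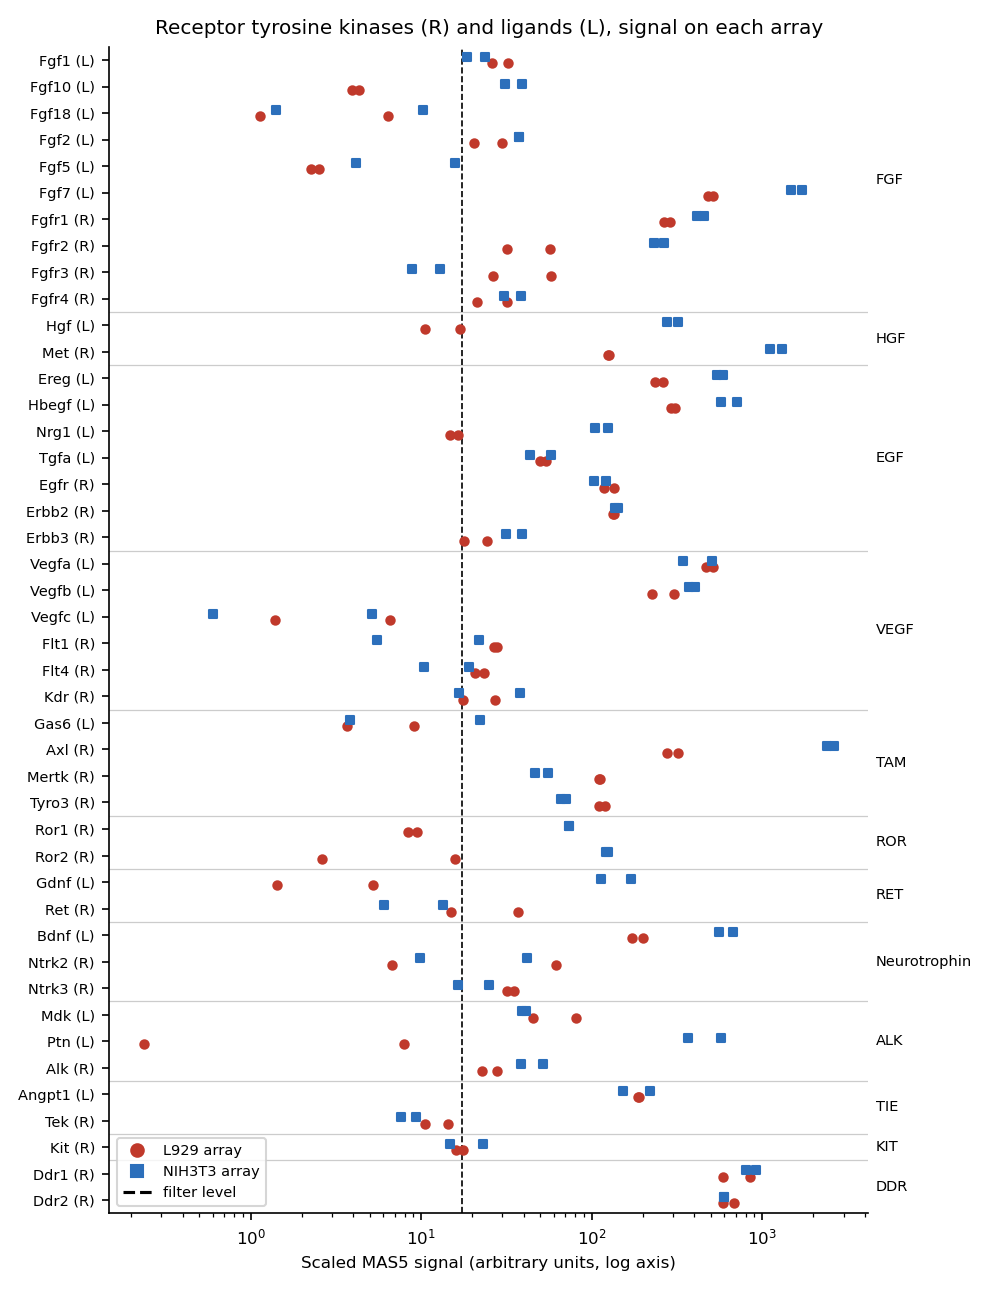
Scaled MAS5 signal of each receptor (R) and ligand (L) with a probe set on a log axis, with red circles for the 2 L929 arrays, blue squares for the 2 NIH3T3 arrays and a dashed line at the filter level of 17.3. Hgf, Nrg1, Gdnf, Ptn, Ror1, Ror2 and Fgf10 lie below that line on both L929 arrays and above it on both NIH3T3 arrays.

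Of the 36 tested members 28 had arrays that did not overlap between the lines, beside 73.9% of all tested genes. The 18 called members were all among them, which the call by itself makes likely with 2 arrays per line. In 14 of the 18 the call held under each of the 15 alternative settings tried. The exceptions were Fgfr1, Fgfr3, Tyro3 and Mertk, whose values are given with their families.

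**Figure D2:**
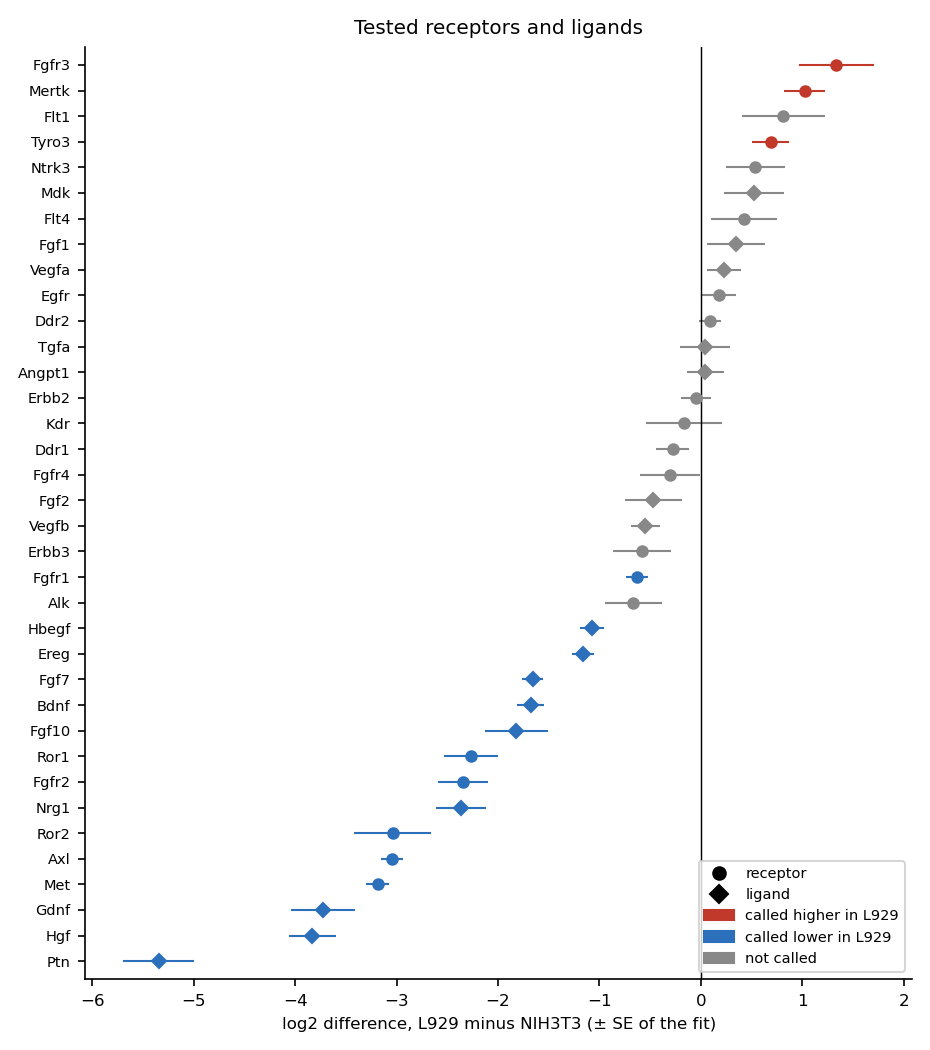
Log2 difference, L929 minus NIH3T3, of the 36 tested members with the standard error of the fit, diamonds for ligands and circles for receptors, coloured by call. The values run from -5.35 for Ptn to 1.34 for Fgfr3, and all 9 called ligands lie left of 0.

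The HGF pair, the ligand hepatocyte growth factor and its only receptor MET, was lower in L929 on both sides. Hgf measured 10.5 and 16.9 in L929 and 277 and 320.1 in NIH3T3. Both L929 values lay below the filter level, so that Hgf was at least 17.2-fold lower (limma log2 difference -3.83 ± 0.23 (SE), adjusted p = 5.7e-06). Met, which drives scattering, migration and growth of epithelial cells, measured 126 and 125 in the L929 samples against 1309.7 and 1111 in those of NIH3T3. It was 9.09-fold lower in L929, where it remained well above the filter level (limma log2 difference -3.18 ± 0.11 (SE), adjusted p = 3.7e-07). All 3 tested Hgf probe sets and both Met probe sets were called lower, with log2 differences from -4.81 to -3.33 and from -3.18 to -3.05.

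The ROR receptors, which bind the Wnt ligand WNT5A rather than a classical growth factor, were also lower together. Ror1 measured 9.49 and 8.35 in L929, against 73.2 and 73.3 in NIH3T3, at least 4.24-fold lower (limma log2 difference -2.26 ± 0.27 (SE), adjusted p = 2.3e-04). Ror2 measured 15.8 and 2.62 in L929 and 125 and 121 in NIH3T3, at least 7.12-fold lower (limma log2 difference -3.04 ± 0.38 (SE), adjusted p = 3.4e-04). Neither gene exceeded the filter level on an L929 array in these probe sets. Other probe sets gave smaller differences: Ror1 had -0.99, called, and -0.39, not called, the latter with 1 L929 array above the level at 25.3. The other Ror2 probe set was called at -1.16, with 18.1 on 1 L929 array. Wnt5a itself measured 2.4 and 9.35 in the L929 samples against 175 and 165 in those of NIH3T3 and was at least 9.86-fold lower (limma log2 difference -3.73 ± 0.31 (SE), adjusted p = 3.1e-05), although another of its tested probe sets differed by only -0.42. Ptk7, a kinase-dead receptor of the same planar polarity pathway, measured 1.93 and 5.9 in L929, against 105 and 108 in NIH3T3, at least 6.16-fold lower (limma log2 difference -3.28 ± 0.29 (SE), adjusted p = 5.0e-05).

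The TAM receptors AXL, TYRO3 and MERTK, which recognise GAS6, and some of them protein S, bound to phosphatidylserine on dying cells, did not change in the same direction. Axl measured 277 and 319 in L929 and 2626 and 2390.0 in NIH3T3 and was 8.23-fold lower in L929 (limma log2 difference -3.04 ± 0.11 (SE), adjusted p = 3.8e-07). Mertk, best known from the uptake of apoptotic cells by phagocytes, measured 112 and 111 in the L929 samples against 55.4 and 46.4 in those of NIH3T3 and was 2.03-fold higher (limma log2 difference 1.02 ± 0.20 (SE), adjusted p = 0.0039). Tyro3 measured 119.9 and 110.2 in L929, against 66.1 and 70.7 in NIH3T3 and was 1.61-fold higher (limma log2 difference 0.69 ± 0.19 (SE), adjusted p = 0.016), with both of its probe sets called. The groups did not overlap for any of the 3 receptors. The Axl call held under all alternatives, whereas that of Mertk was lost without scaling (adjusted p = 0.24, within a limma range of 0.0014 to 0.24). The Tyro3 call was lost without L929 replicate 1 (adjusted p = 0.089), L929 replicate 2 (0.053) or NIH3T3 replicate 1 (0.0502), without scaling (0.59) and with an offset of 32, within a limma range of 0.0068 to 0.59. Gas6, the ligand, was not tested: it measured 9.11 and 3.66 in L929 and 22.1 and 3.83 in NIH3T3, with 1 NIH3T3 array above the filter level. Pros1, which encodes protein S, was 1.66-fold lower in L929 at 88.9 ± 10.7 in L929 and 153 ± 22.3 in NIH3T3 (n = 2; adjusted p = 0.012 by limma), a call that was lost without NIH3T3 replicate 1 (0.072).

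The sequences just upstream of these genes are shown because Hgf with Met and Ror1 with Ror2 were lower together while Axl and Mertk went in opposite directions. Each window holds the 250 bases before an annotated transcription start, from RefSeq in build GRCm38.p6, and for Hgf the upstream of its 2 windows is printed. Both strands were searched for 4 motifs, whose matches are in capitals. The AP-1 motif was spelled TGANTCA. The Sp1 motif was spelled GGGCGG. The TEAD motif was spelled CATTCC and the TATA box TATAAA.

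Hgf chr5:16553245-16553494 (+ strand): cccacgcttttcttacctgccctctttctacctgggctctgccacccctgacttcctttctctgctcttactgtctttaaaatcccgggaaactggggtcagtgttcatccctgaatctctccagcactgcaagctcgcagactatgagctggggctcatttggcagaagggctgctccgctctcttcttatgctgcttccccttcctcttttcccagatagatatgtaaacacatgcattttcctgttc
Met chr6:17463707-17463956 (+ strand): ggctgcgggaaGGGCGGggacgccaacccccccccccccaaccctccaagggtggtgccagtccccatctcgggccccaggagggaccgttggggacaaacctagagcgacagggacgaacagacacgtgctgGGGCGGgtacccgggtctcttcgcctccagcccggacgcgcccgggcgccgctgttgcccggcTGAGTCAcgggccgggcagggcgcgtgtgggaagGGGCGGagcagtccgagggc
Ror1 chr4:100095541-100095790 (+ strand): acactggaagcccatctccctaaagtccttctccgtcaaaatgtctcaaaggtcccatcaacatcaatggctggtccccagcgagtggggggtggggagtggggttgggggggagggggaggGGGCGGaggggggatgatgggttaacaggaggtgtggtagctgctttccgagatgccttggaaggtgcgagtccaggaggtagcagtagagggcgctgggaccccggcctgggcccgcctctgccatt
Ror2 chr13:53286125-53286374 (- strand): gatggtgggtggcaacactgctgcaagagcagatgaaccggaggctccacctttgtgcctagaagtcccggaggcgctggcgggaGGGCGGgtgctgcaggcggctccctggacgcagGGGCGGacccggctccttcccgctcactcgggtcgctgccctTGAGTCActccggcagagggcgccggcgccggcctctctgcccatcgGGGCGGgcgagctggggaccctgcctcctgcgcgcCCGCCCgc
Axl chr7:25788734-25788983 (- strand): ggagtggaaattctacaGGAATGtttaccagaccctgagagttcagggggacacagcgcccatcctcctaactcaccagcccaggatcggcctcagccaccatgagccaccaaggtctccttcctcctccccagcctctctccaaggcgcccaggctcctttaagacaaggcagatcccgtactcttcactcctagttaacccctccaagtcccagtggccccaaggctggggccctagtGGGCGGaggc
Mertk chr2:128698665-128698914 (+ strand): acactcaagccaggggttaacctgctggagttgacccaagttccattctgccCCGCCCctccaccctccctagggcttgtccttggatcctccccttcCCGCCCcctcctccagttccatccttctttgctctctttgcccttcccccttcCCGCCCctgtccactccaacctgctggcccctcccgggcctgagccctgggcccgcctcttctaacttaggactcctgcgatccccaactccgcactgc

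The Met window held 1 AP-1 and 3 Sp1 matches and the Ror2 window 1 AP-1 and 4 Sp1 matches, whereas the Hgf window held 0 matches to any of the 4 motifs. Ror1 had 1 Sp1 match, Axl 1 Sp1 and 1 TEAD match, and Mertk 3 Sp1 matches, and none of the printed matches overlapped another. Of all 32851 such windows 6.75% held the AP-1 letters, 32.7% the Sp1 letters, 12.6% the TEAD letters and 12.4% the TATA letters. CG dinucleotides numbered 24 in the Met and Ror2 windows, 4 in Hgf, 8 in Ror1, 5 in Axl and 7 in Mertk, beside a median of 6 over all windows. A match describes letters and is no evidence of a bound factor.

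In the FGF family ligands that act on epithelia and the receptor Fgfr2 were lower in L929, and Fgfr3 was higher. Fgf7, or keratinocyte growth factor, which mesenchymal cells make for epithelia, measured 515 and 482 in the L929 samples against 1701 and 1485 in those of NIH3T3. It was 3.16-fold lower (limma log2 difference -1.66 ± 0.11 (SE), adjusted p = 7.8e-06), and its other probe set gave -2.18. Without L929 replicate 1 that probe set was the brighter one, and Fgf7 stood at -2.31. Fgf10, which acts on the same splice form of FGFR2 in branching organs, measured 3.95 and 4.32 in L929, against 31.1 and 38.9 in NIH3T3. It stayed below the filter level in L929 and was dim in NIH3T3, at least 2.02-fold lower (limma log2 difference -1.82 ± 0.31 (SE), adjusted p = 0.0016). Fgfr2 measured 31.8 and 56.6 in L929 and 267 and 233 in NIH3T3, 5.07-fold lower (limma log2 difference -2.34 ± 0.25 (SE), adjusted p = 1.2e-04), and both of its tested probe sets were called; the splice forms of this receptor were not resolved.

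Fgfr1, the main FGF receptor of fibroblasts, was 1.55-fold lower in L929, just past the fold threshold. It measured 267 and 288 in the L929 samples against 417 and 453 in those of NIH3T3 (limma log2 difference -0.63 ± 0.11 (SE), adjusted p = 0.0016). Its other probe sets gave -0.28 and -0.85 and were not called. The call was lost without L929 replicate 1 (log2 difference -0.58), without NIH3T3 replicate 2 (-0.57), with median scaling (-0.57) and without scaling (-0.91, adjusted p = 0.15). Fgfr3, known from its restraint of bone growth, was higher at 26.3 and 57.7 in L929, against 12.9 and 8.85 in NIH3T3, at least 2.26-fold (limma log2 difference 1.34 ± 0.37 (SE), adjusted p = 0.019). This bound depends on the array: it was 1.52-fold without L929 replicate 2 and 3.34-fold without L929 replicate 1. The L929 arrays differed by more than the distance of the lower one from the filter level, and the call was lost without L929 replicate 2 (adjusted p = 0.16), NIH3T3 replicate 1 (0.054) or NIH3T3 replicate 2 (0.086) and with no filter (0.054), within a limma range of 0.0042 to 0.16. With the filter at the 50th percentile Fgfr3 was not tested. Its other probe set, tested in no line, overlapped at 27.9 and 6.21 in L929 against 19 and 2.48 in NIH3T3.

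The remaining FGF members lay near or below the filter level. Fgf2, the basic FGF that fibroblasts make without a secretion signal, measured 29.9 and 20.4 in L929 and 37.3 and 37.6 in NIH3T3 (adjusted p = 0.21 by limma). Fgf1, the ligand with the broadest choice of FGF receptors, measured 32.1 and 26.1 in the L929 samples against 23.7 and 18.6 in those of NIH3T3 (adjusted p = 0.36 by limma). These groups did not overlap for either ligand, but the differences were small against the error at this signal. Fgfr4 overlapped between lines at 31.8 and 21.4 in L929, against 30.6 and 38.3 in NIH3T3, and 1 of its 5 probe sets was tested. Fgf5, which ends hair growth, and Fgf18, a ligand of cartilage and bone, had no probe set above the filter level on any array and were not tested.

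In the EGF family 3 of 7 tested members were called, all of them ligands lower in L929, beside 35.1% of all tested genes. No receptor was called. Egfr measured 119 and 136 in L929 and 121 and 103 in NIH3T3 and Erbb2, the partner chain that needs no ligand, 133 and 135 in the L929 samples against 142 and 137 in those of NIH3T3. Their limma log2 differences were 0.18 ± 0.17 and -0.05 ± 0.15 (SE), so that no difference was called, and other Egfr probe sets ranged from -0.12 to 0.28. Ereg, or epiregulin, measured 235 and 261 in L929, against 540.0 and 593 in NIH3T3, 2.24-fold lower (limma log2 difference -1.17 ± 0.11 (SE), adjusted p = 6.4e-05). Hbegf, the heparin-binding ligand shed by metalloproteases, measured 293 and 307 in L929 and 711 and 575 in NIH3T3, 2.1-fold lower (limma log2 difference -1.07 ± 0.12 (SE), adjusted p = 1.9e-04), and its other probe set gave -1.05. Nrg1, or neuregulin, which binds ERBB3 and ERBB4, was below the filter level in L929 at 14.8 and 16.4 in the L929 samples against 104 and 124 in those of NIH3T3, at least 6.59-fold lower (limma log2 difference -2.37 ± 0.24 (SE), adjusted p = 1.1e-04).

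The other members of the EGF family were not called. Tgfa overlapped between the lines at 50 and 54 in L929, against 43.6 and 57.6 in NIH3T3. Erbb3, the neuregulin receptor with a weak kinase, measured 17.8 and 24.3 in L929 and 31.6 and 39 in NIH3T3 (log2 difference -0.58 ± 0.29, adjusted p = 0.13 by limma). Its groups did not overlap, but all values lay near the filter level. Of the ligands outside the members, Egf and Btc were not called at log2 differences of -0.01 and -0.66, and Erbb4 stayed below the filter level on all 4 arrays.

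The VEGF family held 0 calls among 5 tested members in the limma fit, and 1, Vegfb, had an unadjusted p under 0.05. Of all tested genes 35.1% were called, so 0 calls among 5 genes cannot be read as a trait of the family. Vegfa, the main angiogenic ligand, lay well above the filter level in both lines at 469 and 515 in the L929 samples against 345 and 509 in those of NIH3T3 (log2 difference 0.23 ± 0.17, adjusted p = 0.31 by limma). Vegfb, a ligand of FLT1 alone, measured 226 and 303 in L929, against 372 and 402 in NIH3T3 and reached an adjusted p of 0.016 (limma), but its 1.46-fold difference lay under the fold threshold. It was called lower without L929 replicate 2 (log2 difference -0.75). The receptors stayed near the filter level, as Kdr at 17.7 and 27.2 in L929 and 38.2 and 16.6 in NIH3T3, Flt1 at 26.6 and 27.9 in the L929 samples against 5.51 and 21.9 in those of NIH3T3 and Flt4 at 20.7 and 23.5 in L929, against 10.4 and 19.2 in NIH3T3 show. In each receptor 1 of 2 NIH3T3 arrays exceeded the filter level. Flt1 was called higher without NIH3T3 replicate 2 (log2 difference 1.38), and a dimmer Flt4 probe set was called higher at 1.09. Vegfc, the lymphatic ligand, was below the level on all arrays.

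Among co-receptors and relatives of the VEGF family, Nrp1 and Vegfd were lower in L929 and Pgf was higher. Nrp1, the neuropilin that presents VEGFA to KDR, measured 14.7 and 5.84 in L929 and 432 and 587 in NIH3T3 and was at least 29.2-fold lower in L929 (limma log2 difference -4.85 ± 0.28 (SE), adjusted p = 4.3e-06). Nrp2 measured 571 and 592 in the L929 samples against 368 and 449 in those of NIH3T3 and was not called (log2 difference 0.51 ± 0.12), although 2 of its other probe sets were called higher, up to 1.10. Pgf, or placental growth factor, was at least 2.38-fold higher at 24.3 and 69.3 in L929, against 5.22 and 7.01 in NIH3T3 (limma log2 difference 1.83 ± 0.43 (SE), adjusted p = 0.0086). This bound rests on L929 replicate 2: without it the bound was 1.41-fold and the call was lost (adjusted p = 0.059), as it was without NIH3T3 replicate 1 (0.056; limma). With L929 replicate 2 alone the bound was 4.02-fold. Vegfd was 1.97-fold lower at 132 ± 12.1 in L929 and 267 ± 4.02 in NIH3T3 (n = 2; adjusted p = 5.4e-04 by limma).

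Ptn, or pleiotrophin, a heparin-binding ligand of PTPRZ1 that has also been linked to ALK, showed the widest difference of all members in its brightest probe set. It measured 7.91 and 0.237 in L929 and 368 and 571 in NIH3T3 and was at least 26.6-fold lower in L929 (limma log2 difference -5.35 ± 0.35 (SE), adjusted p = 9.0e-06). The next probe set gave -3.98, but the other, dim probe set went the other way without being called, at 24.2 and 50.8 in L929 against 23.4 and 32.6 in NIH3T3 (log2 difference 0.28). With the mean of its tested probe sets Ptn stood at -3.01 and was not the widest, beside -3.73 for Gdnf with its 1 probe set. Mdk, or midkine, the only relative of Ptn, was not called at 80.8 and 45.6 in the L929 samples against 41.1 and 38.8 in those of NIH3T3 (log2 difference 0.53 ± 0.29). It was called higher without L929 replicate 2 (log2 difference 0.89, limma adjusted p = 0.048). Alk measured 22.7 and 27.9 in L929, against 51.6 and 38.6 in NIH3T3, a difference of -0.67 ± 0.28 that was not called (adjusted p = 0.082 by limma), and Ptprz1 stayed below the filter level on all 4 arrays.

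**Figure D3:**
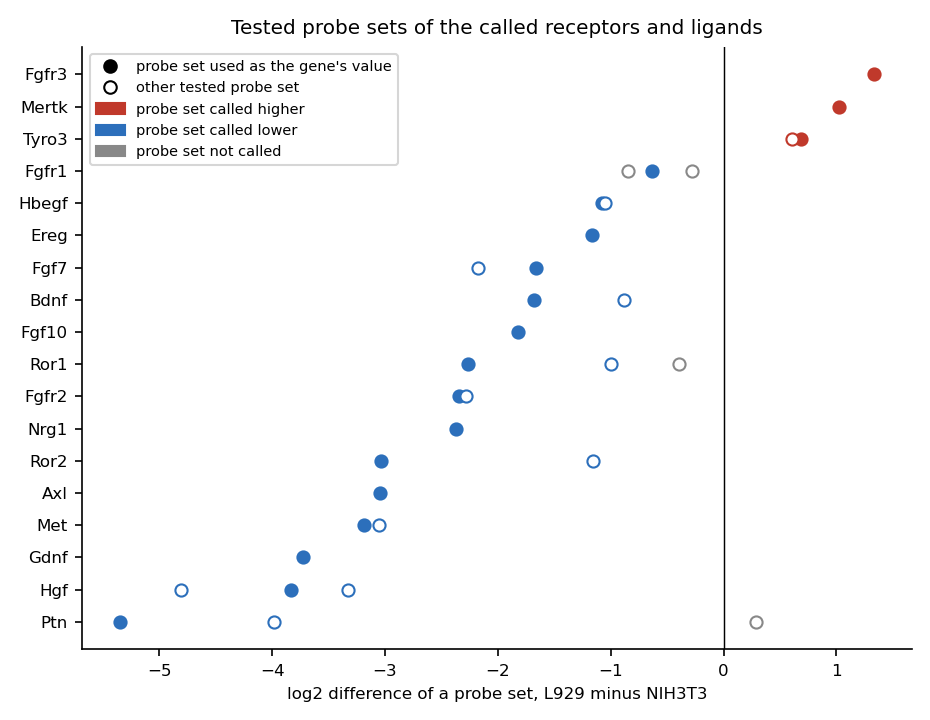
Log2 difference, L929 minus NIH3T3, of each tested probe set of the 18 called members, with filled circles for the probe set that gives the gene's value. Of 11 called members with several tested probe sets, all probe sets were called the same way in 8, and those of Ptn differed in sign.

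The neurotrophic ligands Gdnf and Bdnf were lower in L929, while their kinases Ret and Ntrk2 had no probe set above the filter level on both arrays of a line. Gdnf, a survival factor for neurons and for spermatogonial stem cells, measured 1.42 and 5.2 in L929 and 114 and 171 in NIH3T3, at least 8.1-fold lower (limma log2 difference -3.73 ± 0.32 (SE), adjusted p = 3.8e-05). Bdnf measured 199 and 173 in the L929 samples against 675 and 556 in those of NIH3T3, 3.2-fold lower (limma log2 difference -1.68 ± 0.13 (SE), adjusted p = 2.3e-05), with its other probe set at -0.88. Ret, the kinase that serves GDNF, was not tested at 15.1 and 36.9 in L929, against 13.4 and 6.08 in NIH3T3. Its co-receptor Gfra1 was 2.58-fold lower at 19 and 22.1 in L929 and 63.2 and 68 in NIH3T3 (limma log2 difference -1.37 ± 0.25 (SE), adjusted p = 0.0027). Ntrk2, the BDNF receptor, had 8 probe sets, none of them tested, and its brightest one scattered within each line at 6.73 and 61.5 in the L929 samples against 9.87 and 41.9 in those of NIH3T3. Ntrk3, the receptor of neurotrophin Ntf3, measured 31.8 and 35 in L929, against 25.1 and 16.5 in NIH3T3 (log2 difference 0.54 ± 0.29), and another of its 3 tested probe sets gave -0.36.

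The collagen receptors and the TIE family showed no called difference, with 2 and 1 genes tested, beside 35.1% called of all tested genes. With so few genes, 0 calls cannot be read as a trait of either family. Ddr1 and Ddr2, which are switched on slowly by collagen fibrils, measured 849 and 591 in L929 and 808 and 917 in NIH3T3 and 588 and 686 in the L929 samples against 595 and 599 in those of NIH3T3, respectively. The lines overlapped in both, and the limma fit called 0 of the 8 Ddr1 and 0 of the 2 Ddr2 probe sets. Neither gene had an unadjusted p under 0.05. Angpt1, the vessel-stabilising ligand of TEK, measured 191 and 188 in L929, against 152 and 221 in NIH3T3 (log2 difference 0.04 ± 0.18). Its receptor Tek, an endothelial kinase, lay below the filter level on all 4 arrays. Kit, the stem cell factor receptor of mast cells and melanocytes, was not tested at 17.6 and 16 in L929 and 14.7 and 22.9 in NIH3T3. Its ligand Kitl was 4.91-fold lower in L929 at 259 and 212 in the L929 samples against 1198 and 1169.8 in those of NIH3T3 (limma log2 difference -2.30 ± 0.12 (SE), adjusted p = 2.1e-06), and its tested probe sets ranged from -2.30 to -0.79.

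To see which autocrine loops the transcripts would allow, 32 ligand-receptor pairs were listed, of which Areg with Egfr could not be read for want of an Areg probe set, and a pair was counted in a line when both transcripts exceeded the filter level on both of its arrays. By this count 15 pairs passed in L929 and 14 in NIH3T3, with 10 in both lines. The 5 pairs counted in L929 alone were Fgf1 and Fgf2 with Fgfr3, Vegfa with Flt1 or Kdr, and Vegfb with Flt1. The 4 counted in NIH3T3 alone were Hgf with Met, Fgf10 with Fgfr2, Nrg1 with Erbb3 and Ptn with Alk. Vegfa, Vegfb, Flt1 and Kdr were not called, so the VEGF pairs of L929 rest on the level and not on a called difference. Kdr overlapped between the lines, at 17.7 and 27.2 in L929 and 38.2 and 16.6 in NIH3T3. The pairs share members, so they are not independent, and a transcript is no measure of secreted ligand or active receptor. Fgf7 and Fgf10 act on the same splice form of FGFR2, and splice forms were not resolved. Whether their pairs with Fgfr2 could form a loop is therefore not known in either line.

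The level decided much of this count. At the 50th percentile of the signals, 26.8, L929 kept 4 pairs and NIH3T3 11, and at the 60th percentile, 46.2, they kept 3 and 4. None of the 5 L929 pairs passed at the 50th percentile, whereas all 4 NIH3T3 pairs did, and Hgf with Met passed at the 60th as well. Ereg and Hbegf with Egfr were above the 60th percentile in both lines, Tgfa with Egfr in L929, and Fgf7 with Fgfr2 in NIH3T3. The 3 pairs of Gas6 with TAM receptors, Bdnf with Ntrk2, Gdnf with Ret and Angpt1 with Tek were not counted in either line, in each case because at least 1 of both transcripts did not exceed the level on both arrays.

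**Figure D4:**
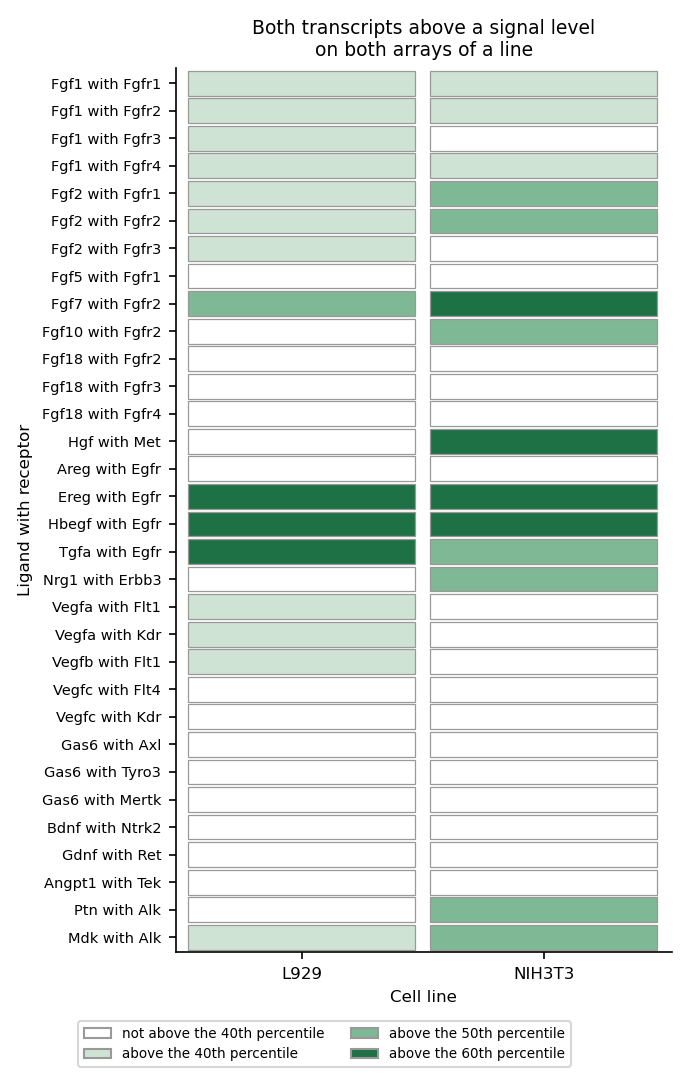
The 32 ligand-receptor pairs in each line, shaded by the highest of 3 signal levels (40th, 50th and 60th percentile: 17.3, 26.8 and 46.2) that both transcripts exceed on both arrays of the line. Hgf with Met is filled darkest in NIH3T3 and empty in L929.

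Around the members, 6 further lists of the pathway held 131 tested genes, of which 21 were higher and 27 lower in L929. These are 16% and 20.6%, near the 17.4% and 17.7% of all tested genes, so the lists together show no excess of calls. Singly, the called share ran from 16.7% in adaptors and proximal signalling to 57.1% in ligand processing, beside 35.1% of all tested genes. Other ligands of receptor tyrosine kinases were called in both directions, 8 higher and 8 lower of 34. Efnb1, an ephrin, was 4.76-fold higher at 252 ± 0.337 in L929 and 51.1 ± 31.5 in NIH3T3 (n = 2), and Csf1, the macrophage growth factor, 3.92-fold higher. Mst1, the ligand of MST1R, was 4.13-fold higher, NIH3T3 passing the filter level on 1 of 2 arrays. Efna3, another ephrin, was called lower at 16.2 ± 3.27 in L929 and 99.3 ± 12.7 in NIH3T3, beside Wnt5a and Kitl. Of 15 other receptor tyrosine kinases 12 were not called: Epha7 was at least 1.18-fold and Styk1 1.71-fold higher, and Ptk7 was the lower one. The Epha7 call was lost whichever array was left out (limma adjusted p from 0.065 to 0.10), and that of Styk1 without L929 replicate 1 (0.092) or NIH3T3 replicate 1 (0.059). Csf1r, the receptor of CSF1, was not called at 93.3 and 72.9 in L929, against 80.6 and 93 in NIH3T3, but a dimmer probe set was called lower at -0.80. Flt3 exceeded the filter level on 1 array of each line and was not tested.

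Helpers of ligand binding and release were also called in both directions. Of 18 co-receptors and binding partners 4 were higher and 6 lower. The syndecan Sdc3 was 4.56-fold higher at 464 ± 10.3 in L929 and 95.5 ± 6.6 in NIH3T3 (n = 2). Its 3 tested probe sets ran from 0.60 to 2.19, and 2 of them were called higher. The glypicans Gpc6 and Gpc1 were 2.38-fold and 1.69-fold higher, and Gpc6 passed the filter level on 1 of 2 arrays of NIH3T3. The neurturin co-receptor Gfra2 was at least 11.3-fold lower, although another of its probe sets gave -0.41, and the glypican Gpc4 was 8.93-fold lower with 1 of 2 L929 arrays above the level. Of 14 genes for ligand processing 3 were higher and 5 lower. Hs6st2, which adds sulphate to the heparan chains that FGFs bind, was at least 34.2-fold lower at 8.77 and 9.59 in L929 and 597 and 584 in NIH3T3 (limma log2 difference -5.12 ± 0.18 (SE), adjusted p = 3.4e-07), while its relative Hs6st1 was 1.97-fold higher. Adam17, the main sheddase of EGF-family ligands, and Rhbdf1, its partner in transport, were 1.92-fold and 1.67-fold higher. Adam12 was called lower at 13.9 ± 8.93 in L929 and 287 ± 20.5 in NIH3T3, and Plat, tissue plasminogen activator, was 6.07-fold lower.

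Genes that act just inside the membrane were called in both directions as well. Of 30 adaptors and proximal signalling genes 2 were higher and 3 lower, so that 16.7% were called, beside 35.1% of all tested genes. Nras was 2.01-fold and Akt2 1.52-fold higher, Rasa1 and Plcg1 were 1.73-fold and 1.71-fold lower, and Stat3 was 2.27-fold lower, with probe sets from -1.18 to 0.55. Akt2 fell under the fold threshold without L929 replicate 2 (log2 difference 0.55), and Stat3 and Plcg1 did so with the mean of their probe sets (-0.39 and -0.40). Of 20 genes that restrain receptors or turn them over 2 were higher and 4 lower. Grb14, an adaptor that inhibits the insulin receptor and binds FGF receptors, measured 18 and 6.04 in the L929 samples against 1964 and 2042 in those of NIH3T3 and had the lowest log2 difference of these lists (limma log2 difference -6.72 ± 0.25 (SE), adjusted p = 4.9e-07). Socs5 and Lrig1, both reported to lower EGFR levels, were 2.55-fold and 2.41-fold lower, with Lrig1 probe sets from -1.50 to 0.11. The adaptor Sh2b3 was 4.14-fold and the phosphatase Ptpn12 2.17-fold higher. Without scaling, 8 genes of the 6 lists were higher in place of 21, and among those not called then were Epha7, Styk1, Gpc1, Gpc6, Hs6st1, Adam17, Rhbdf1, Nras, Akt2 and Ptpn12. Of the 48 called genes of these lists 29 kept their call under all 15 alternatives.

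**Figure D5:**
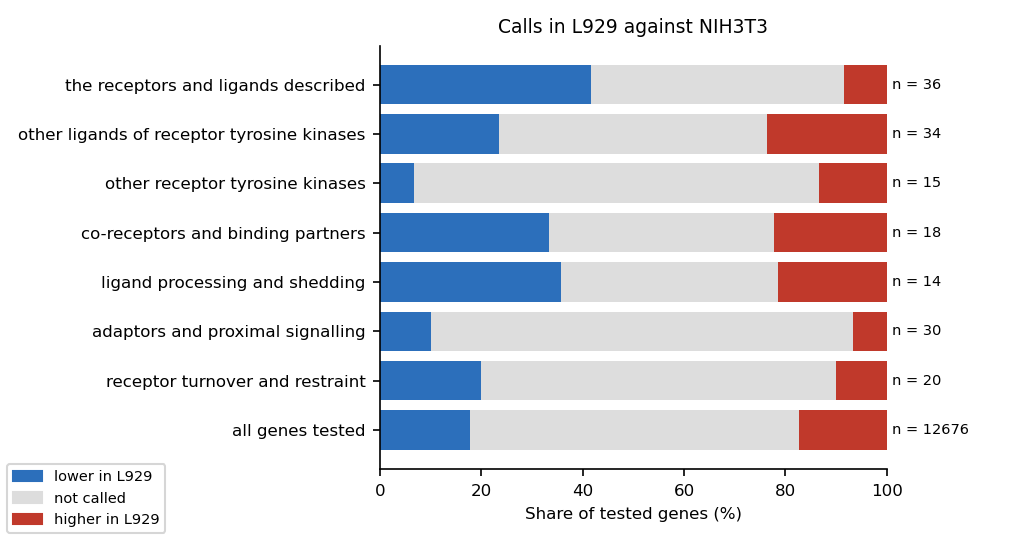
Share of tested genes called lower (blue, left) or higher (red, right) in L929 for the receptors and ligands described, 6 further pathway lists and all genes tested, with the number tested beside each bar. The members hold 41.7% lower and 8.33% higher calls, beside 17.7% and 17.4% of all genes. They were chosen with earlier results of these data known.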

How the data were processed

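Per the labels, RNA of 2 samples each of unstimulated L929 and NIH3T3 cells was purified with Trizol and RNeasy columns and hybridised to Affymetrix Mouse Genome 430 2.0 arrays. Each probe set has 1 linear intensity per array in the deposited table; per the submitters' processing notes these are MAS5 signals. The MAS5 version and its scaling target were not stated there. No detection calls were used.

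Of 45037 probe sets that are not controls, 34945 had a unique gene symbol in the platform annotation, 932 several and 9160 none. Arrays were scaled to a common trimmed mean (2% left out at each end), an offset of 8.01 (the 25th percentile) was added, and log2 values were fitted with lmFit and eBayes with trend in limma 3.58.1 (R 4.3.3). Folds on this scale understate changes of dim genes. Each gene took its tested probe set with the highest mean, and p-values were adjusted over 12676 genes. For lines with both arrays under 17.3, "at least" gives the bright line's mean log2 signal against 17.3. A fold is left out where a line had 1 array above that level and a mean below it. The fold and false discovery thresholds are those of the design text, which names no test. The replicate differences of the 2 lines showed no shared effect over the tested probe sets (r = 0.01). This cannot tell whether arrays of the same number were handled together.

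The members, lists, pairs and rules were chosen with earlier results of these data known. All 45 members are named, with their partners and up to 3 called genes per direction of each pathway list, ranked by log2 difference. Of the cell type markers, those called and a few defining ones that were low are named. Promoter windows were found for 35 of the 45 members in RefSeq (GRCm38.p6), and not for Fgf1, Fgfr1, Erbb3, Ereg, Hbegf, Nrg1, Ntrk3, Ret, Angpt1 and Mdk. All 45 symbols were found in that assembly's gene table. The procedure was tested on simulated data. Alternatives were other scalings, offsets, filters, probe set rules and variance models, a replicate block and leaving out each array. Running them for the called pathway genes was added after seeing the data.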

Additional observations from a re-analysis of the deposited data

How the results depend on the processing

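The count of members lower in L929 was 14 to 16 under all 15 alternatives, beside 15, and the calls of 14 members held in each of them. The higher count, 3, was 1 without scaling and ranged from 1 to 3 when an array was left out; it was 1 without NIH3T3 replicate 1. Leaving out an array leaves 1 array in a line, which is then assumed to vary like the other line. Higher calls among the other pathway genes numbered 8 without scaling, in place of 21. The median log2 difference over all genes was -0.26 without scaling, in place of 0.01, and 31.4% in place of 49.5% of all calls were higher. Pairs counted in L929 were 4 at the 50th and 3 at the 60th percentile level and 6 with the mean of all probe sets, in place of 15. In NIH3T3 they were 4 at the 60th percentile level and 7 with the mean of all probe sets, in place of 14; without scaling the counts were 14 and 15. Pairs with at least 1 of 2 arrays above the level numbered 16 and 21.

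Members that were not called changed sign in places. Without scaling, where these genes moved by about the shift of all genes, the log2 difference was -0.095 for Egfr, -0.21 for Tgfa, -0.058 for Vegfa, -0.20 for Ddr2 and -0.24 for Angpt1. Erbb2 stood at 0.0085 with median scaling and 0.031 with quantile normalization, and Ddr2 at -0.041 with the mean of its probe sets. When an array was left out, the values ran from -0.13 to 0.22 for Tgfa, -0.050 to 0.50 for Vegfa, -0.62 to 0.29 for Kdr, -0.021 to 0.20 for Ddr2 and -0.21 to 0.30 for Angpt1. The cause of the changes other than those without scaling was not tested. Ret without L929 replicate 1 and Gas6 without NIH3T3 replicate 1 entered the test and were called. The replicate block changed no call of a member, with 3 higher and 15 lower; over all genes it gave 2187 higher and 2253 lower, beside 2202 and 2244. The 2 arrays per line and signals near the filter level limit what can be said of dim receptors.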
